A study of Mus musculus with 14 samples.

Results

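The 10 genes described here carry the calcium cycle of the heart muscle cell: Atp2a2, Pln, Ryr2, Casq2, Slc8a1, Trdn, Jph2, Cacna1c, Srl and Hrc. They were taken by symbol from the 56748 genes of the table, and all 10 had a row. Gene expression was measured by RNA-Seq in hearts of 14 wild-type (WT) C57BL6J mice, 1 library per mouse, with 4 mice in WT_A, 5 in WT_F and 5 in WT_B. Per the labels, these mice received no treatment, and doxycycline chow was given in the series for 16 to 20 weeks. The chow switches on a hairpin against frataxin in transgenic mice that are not analysed here. The paper states that its WT controls received doxycycline as well, because the drug itself may act on mitochondria. The WT mice, as labelled, carry no hairpin. The labels give neither sex nor cohort. The transcripts that tell female from male mice had the female pattern in 5 of 5 WT_F libraries and in 0 of 9 others. The methods describe a first cohort of both sexes, whose females were kept on chow longer than its males and longer than the range in the labels, and a second cohort of males only, so that sex and weeks on chow cannot be told apart between WT_F and WT_A. Reading WT_A and WT_F as the first cohort and WT_B as the second is an inference from the group names. Under that reading, sex, cohort and weeks on chow cannot be told apart in WT_B minus WT_F. In WT_B minus WT_A, cohort and weeks on chow cannot be told apart. Each RNA came from a small piece of heart, and the region it was cut from was not given in the sources used here.

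In each heartbeat the L-type channel lets calcium into the muscle cell. This calcium opens the ryanodine receptor, through which the sarcoplasmic reticulum (SR) releases calcium from its store. The muscle relaxes when a pump returns calcium to the SR and an exchanger moves the rest out of the cell. The members fall into 3 roles. Atp2a2 encodes the pump SERCA2, Pln encodes phospholamban, a small membrane protein that holds the pump back until it is phosphorylated, and Srl encodes sarcalumenin, a calcium-binding glycoprotein of the SR. Ryr2 (the release channel), Casq2 (calsequestrin, the main calcium buffer of the lumen), Trdn (triadin, which ties calsequestrin to the channel), Hrc (a histidine-rich calcium-binding protein of the lumen) and Jph2 (junctophilin, which holds the SR close to the cell membrane) form the release site. Cacna1c (the pore of the L-type channel) and Slc8a1 (the sodium-calcium exchanger) sit in the cell membrane.

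Values are FPKM, fragments per kilobase of gene, scaled to the fragments of the library. The length that fits their steps is that of all exons of a gene together. It was 21191 bases for Cacna1c, 28790 for Ryr2, 9352 for Trdn and 18807 for Slc8a1. Their longest coding transcripts had 13162, 16814, 4514 and 18464 bases. Levels of different genes are therefore compared per unit of exon length, and per transcript they could stand in another order. The libraries held 16.8 to 31.98 M fragments as recovered from the steps of the values, and the members gave between 546 (Pln in WT_A26) and 475483 fragments each. The libraries differed in 2 other ways that touch the members. Mitochondrially encoded genes took 33.8 to 52.02% of the FPKM in the 5 WT_B libraries, 50.96% in WT_A22 and 49.99% in WT_F_A28, but 1.93 to 17.2% in the other 7. The library labelled WT_A24 also stood apart: the atrial light chain gene Myl7 was at 4235 FPKM there and at no more than 2.003 elsewhere, and the ventricular light chain gene Myl2 was at 82.1 FPKM there and at 2226 to 4441 elsewhere. The summed level of 5 atrial markers was 12913 FPKM in WT_A24 and 22.4 to 233 in the others, that of 4 ventricular markers 245 against 4379 to 8408. The summed level of 5 cardiomyocyte genes was 10829 FPKM in WT_A24 and 9633 to 15768 in the other 13 libraries. The main group results are therefore also given without WT_A24. In a piece of tissue, fewer cardiomyocytes and less of a transcript per cardiomyocyte cannot be told apart.

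The start of the coding sequence is shown for 3 members. Pln and Trdn had the transcripts lowest in G and C and the widest ranges between libraries, and Jph2 had the transcript richest in G and C. Jph2 did not vary unusually. It spanned 1.71-fold, and 50.8% of nuclear genes with a mean of at least 5 FPKM had as wide a range. G and C are in capitals, and each run is the first 156 coding bases of the GENCODE M21 transcript on GRCm38. The Pln run is the complete open reading frame without its stop codon (chr10:53343864-53344019, plus strand, 1 exon), the Trdn run spans 2 exons (chr10:33083724-33139207, plus strand) and the Jph2 run is from 1 exon (chr2:163397371-163397526, minus strand).
Pln: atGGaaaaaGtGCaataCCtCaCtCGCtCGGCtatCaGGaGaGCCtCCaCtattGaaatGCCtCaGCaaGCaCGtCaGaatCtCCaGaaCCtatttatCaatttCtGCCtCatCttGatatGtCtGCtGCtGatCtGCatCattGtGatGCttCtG
Trdn: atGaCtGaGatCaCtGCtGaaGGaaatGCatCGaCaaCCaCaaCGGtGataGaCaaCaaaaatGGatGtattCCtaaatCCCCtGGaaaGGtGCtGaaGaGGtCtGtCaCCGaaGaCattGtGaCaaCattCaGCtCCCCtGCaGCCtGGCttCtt
Jph2: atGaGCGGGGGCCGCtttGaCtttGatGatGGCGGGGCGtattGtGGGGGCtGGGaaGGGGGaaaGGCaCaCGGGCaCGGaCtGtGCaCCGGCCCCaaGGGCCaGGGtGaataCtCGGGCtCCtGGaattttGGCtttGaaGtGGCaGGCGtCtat
G and C made up 44.9% of the Pln run, 46.8% of the Trdn run and 61.5% of the Jph2 run. Over the whole transcript the share was 36.8% for Trdn, 38.6% for Pln, 40.2% for Slc8a1, 47.2% for Casq2, 49.6% for Ryr2, 50.3% for Cacna1c, 50.8% for Atp2a2, 50.9% for Srl, 53.3% for Hrc and 61.8% for Jph2. Trdn and Pln lay at the 0.397 and 1.42 percentiles of expressed genes and Jph2 at the 97.97 percentile. In Pln the low share came from outside the reading frame, since the noncoding part of its transcript held 38.1% G and C.

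The pump transcript was by far the most abundant member. Over 14 libraries the mean level of Atp2a2 was 2491 ± 244 FPKM (SD). Hrc came next at 359 ± 52.02, then Casq2 at 342 ± 46.5, Pln at 319 ± 239.9, Srl at 215 ± 32.2 and Jph2 at 204 ± 28.2 FPKM. The release channel Ryr2 lay lower, at 37.1 ± 5.95 FPKM, followed by Trdn at 21.2 ± 12.4, Slc8a1 at 17.04 ± 3.65 and Cacna1c at 11.9 ± 2.403. Of the 9 pairs of neighbours in this order, 4 differed over the 14 libraries. The test was an exact two-sided sign-flip permutation test with Benjamini-Hochberg adjustment over the 9. The pairs were taken from the means of these same libraries, so the p-values describe how steady the order was and are no independent support for it. They do not cover the choice of gene length, and the order under another length was not tested. Atp2a2 was above Hrc in 14 of 14 libraries, by 2.804 on the log2 scale (adjusted p = 0.000549, and 0.0011 over the 13 libraries without WT_A24). Jph2 was above Ryr2 in 14 of 14, by 2.47 (adjusted p = 0.000549 by the same permutation test, 0.0011 without WT_A24). Ryr2 was above Trdn in 12 of 14 (mean log2 ratio 1.09, permutation adjusted p = 0.00522, 0.0104 without WT_A24), and Slc8a1 was above Cacna1c in 12 of 14 (0.52, permutation adjusted p = 0.0033, 0.00659 without WT_A24). For the other 5 pairs, Hrc and Casq2, Casq2 and Pln, Pln and Srl, Srl and Jph2, and Trdn and Slc8a1, a difference beyond the spread was not found. Pln was above Srl in 8 of 14 libraries and below it in the rest.

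The pump and its inhibitor behaved differently. Atp2a2 (chr5:122453513-122502225 on GRCm38, minus strand) was among the steadiest members. In WT_A the FPKM of Atp2a2 was 2445, 2373, 2411 and 2297 in mice 22, 23, 24 and 26. In WT_F it was 2787, 2548, 2865, 2357 and 2384 in mice 28 to 32. In WT_B it was 1937, 2472, 2835, 2655 and 2510.3 in mice 4, 5, 7, 8 and 9. The ranges of the groups overlapped, the lowest value being WT_B4 and the highest WT_F_A30, 1.48-fold apart. The group means were 2382 ± 63.4 FPKM (SD, n = 4), 2588 ± 230.5 FPKM (SD, n = 5) and 2482 ± 336 FPKM (SD, n = 5), and WT_A without WT_A24 was at 2372 ± 73.9 FPKM (SD, n = 3).

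Pln (chr10:53337667-53345987, plus strand) spanned 70.5-fold. Pln was at 579, 8.98, 89.4 and 9.91 FPKM in WT_A mice 22, 23, 24 and 26. WT_F mice 28 to 32 had 633, 168, 309, 136 and 9.95 FPKM. WT_B mice 4, 5, 7, 8 and 9 had 504, 492, 524, 583 and 415 FPKM. All 5 WT_B libraries, WT_A22 and WT_F_A28 were at 415 FPKM or more, 4 libraries lay between 89.4 and 309, and WT_A23, WT_A26 and WT_F_A32 were below 10 FPKM. The groups overlapped, since WT_A22 and WT_F_A28 lay within or above the range of WT_B. The means were 172 ± 274 FPKM (SD, n = 4) in WT_A, 199 ± 329 FPKM (SD, n = 3) in WT_A without WT_A24, 251 ± 239 FPKM (SD, n = 5) in WT_F and 504 ± 60.8 FPKM (SD, n = 5) in WT_B. Of 5246 nuclear genes with a mean of at least 5 FPKM, 16 (0.305%) spanned as wide a range on the log2(FPKM + 1) scale, and without WT_A24 this was 11 genes. Pln overlaps Cep85l and Gm47644 on the opposite strand, which were at no more than 2.29 and 7.46 FPKM, and whether the libraries kept strand was not given in the sources used here.

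Srl (chr16:4480216-4541816, minus strand) varied little outside WT_A24. The WT_A mice 22, 23, 24 and 26 had 216, 187, 298 and 206 FPKM of Srl. Those of WT_F, mice 28 to 32, had 201, 206, 258, 219.9 and 177. Those of WT_B, mice 4, 5, 7, 8 and 9, had 196, 208, 200.02, 191 and 246. WT_A24 had the highest value of all 14, and the other 13 lay within 1.46-fold of each other. All groups overlapped.

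**Figure D1:**
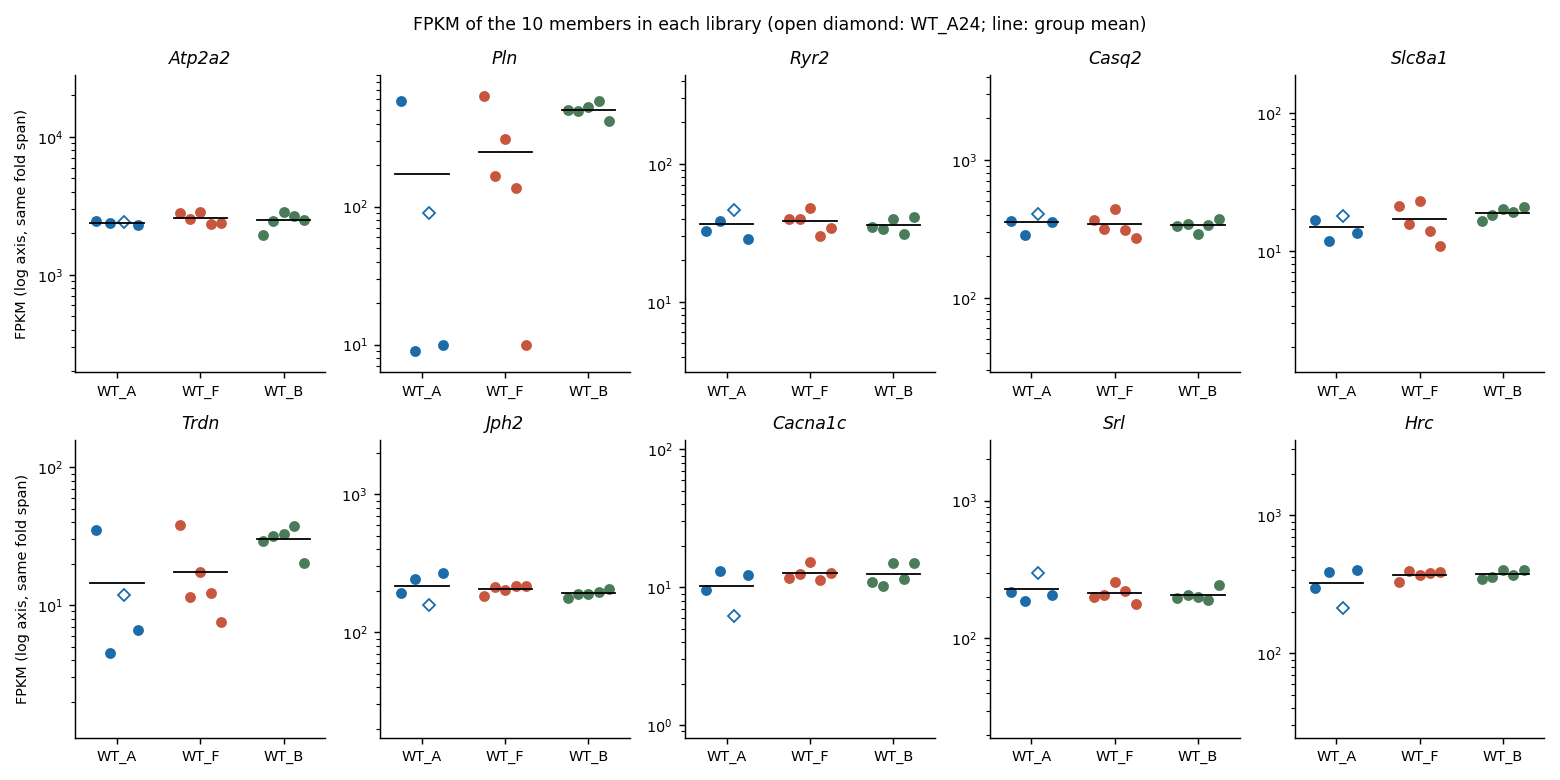
FPKM of the 10 members in each of the 14 libraries by group, on log axes that all span the same fold. Pln ran from 8.98 to 633 FPKM and Trdn from 4.53 to 38.2, while the other 8 members stayed within 2.46-fold; the open diamond is WT_A24.

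At the release site, the anchor Trdn varied far more than the channel Ryr2. Ryr2 (chr13:11553102-12106945, minus strand) ran from 28.4 FPKM in WT_A26 to 48.1 in WT_F_A30, with group means of 36.5 ± 7.86 FPKM (SD, n = 4), or 33.2 ± 5.16 without WT_A24 (n = 3), 38.4 ± 6.88 FPKM (SD, n = 5) and 36.1 ± 4.21 FPKM (SD, n = 5). Trdn (chr10:33080554-33476709, plus strand) spanned 8.41-fold. In WT_A the FPKM of Trdn was 34.9, 4.53, 11.8 and 6.65 in mice 22, 23, 24 and 26. In WT_F it was 38.2, 11.5, 17.3, 12.2 and 7.602 in mice 28 to 32. In WT_B it was 28.998, 32.01, 32.9, 37.5 and 20.3 in mice 4, 5, 7, 8 and 9. The 2 libraries of WT_A and WT_F with the highest Trdn, WT_A22 and WT_F_A28, were the same 2 that were highest for Pln, and the 3 lowest libraries were WT_A23, WT_A26 and WT_F_A32 for both genes. In WT_B the lowest value of both was in WT_B9. A range as wide as that of Trdn was found in 119 of the 5246 genes (2.27%), and in 63 without WT_A24.

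The luminal buffers were steadier. Casq2 (chr3:102086415-102146514, plus strand) lay between 273 FPKM in WT_F_A32 and 438 in WT_F_A30, with group means of 353 ± 49.99 FPKM (SD, n = 4), or 334 ± 41.1 without WT_A24 (n = 3), 341 ± 63.9 FPKM (SD, n = 5) and 335 ± 29.9 FPKM (SD, n = 5). Hrc (chr7:45335290-45338974, plus strand) was low in WT_A24. In WT_A the FPKM of Hrc was 297, 386, 213 and 399 in mice 22, 23, 24 and 26. In WT_F it was 327, 392, 366, 382 and 391 in mice 28 to 32. In WT_B it was 345, 357, 401, 371 and 404 in mice 4, 5, 7, 8 and 9. Without WT_A24 the 13 remaining libraries lay within 1.36-fold, the narrowest range of the 10 members. After WT_A24 the lowest Hrc values were in WT_A22 and WT_F_A28.

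Jph2 (chr2:163336242-163397993, minus strand), the member richest in G and C, leaned the other way from Pln. So did Hrc, at 53.3% G and C. With each group's mean taken out and WT_A24 left out, the Pearson r with Pln was -0.797 for Jph2 and -0.779 for Hrc. Jph2 was at 192, 244, 158 and 271 FPKM in WT_A mice 22, 23, 24 and 26. WT_F mice 28 to 32 had 182, 214, 204, 217 and 217 FPKM. WT_B mice 4, 5, 7, 8 and 9 had 178, 190.1, 190.3, 195 and 207 FPKM. The 2 highest values were in WT_A26 and WT_A23, where Pln was near its lowest, and the lowest value was in WT_A24. The group means were 216 ± 50.7 FPKM (SD, n = 4), or 235 ± 40.04 FPKM (SD, n = 3) without WT_A24, 207 ± 14.8 FPKM (SD, n = 5) and 192 ± 10.4 FPKM (SD, n = 5).

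Of the 2 membrane proteins, Cacna1c (chr6:118587240-119196418, minus strand) had the lowest mean of the 10. The WT_A mice 22, 23, 24 and 26 had 9.49, 13.2, 6.21 and 12.3 FPKM of Cacna1c. Those of WT_F, mice 28 to 32, had 11.6, 12.6, 15.3, 11.2 and 12.6. Those of WT_B, mice 4, 5, 7, 8 and 9, had 10.9, 10.2, 14.9, 11.4 and 14.9. WT_A24 had the lowest value, and the other 13 lay within 1.61-fold. Slc8a1 (chr17:81373105-81738377, minus strand) spanned 2.12-fold. In WT_A the FPKM of Slc8a1 was 16.6, 11.7, 17.9 and 13.4 in mice 22, 23, 24 and 26. In WT_F it was 21.2, 15.7, 22.9, 13.9 and 10.8 in mice 28 to 32. In WT_B it was 16.4, 18.1, 19.9, 19.1 and 20.8 in mice 4, 5, 7, 8 and 9. Its lowest values were in WT_F_A32 and WT_A23, and the WT_B libraries all lay above WT_A23 and WT_A26 but overlapped WT_A22 and WT_A24.

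No member passed the test in any of the 3 comparisons of groups. Levels were compared by limma on log2(FPKM + 1) over genes that reached 0.5 FPKM in 4 or more libraries, with adjusted p under 0.05 over all genes tested counted as a call. In WT_F minus WT_A, 0 of 10 members were called, against 0.016% of 12483 genes higher and 0.00801% lower. Of the members, 0 had an unadjusted p under 0.05, beside 3.85% of all genes, and the median difference was 0.13 over the members and -0.0019 over all genes. In WT_B minus WT_A, 0 of 10 were called, against 0.259% of 12745 genes higher and 0.0628% lower. Of the members, 3 of 10 had an unadjusted p under 0.05, beside 22.5% of all genes, and the median difference was 0.15 over the members and -0.035 over all genes. In WT_B minus WT_F, 0 of 10 were called, against 0.667% of 12894 genes higher and 0.946% lower. An unadjusted p under 0.05 was found for 2 of 10 members, beside 25.8% of all genes, and the medians were -0.017 over the members and -0.029 over all genes. limma voom on the recovered fragments called 0 members in each comparison as well. With mitochondrially encoded genes left out and the rest rescaled, the calls over all genes in WT_B minus WT_F turned from 86 higher and 122 lower to 138 higher and 66 lower, with 0 members called. Leaving out WT_A24 called 0 members, against 0% of genes in either direction in WT_F minus WT_A and 0% in WT_B minus WT_A, where 516 and 3175 genes had an unadjusted p under 0.05 in limma.

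The largest member differences were in Pln and Trdn. In WT_B minus WT_A the difference of Pln was 3.36 ± 1.02 (SE) on the log2(FPKM + 1) scale (limma adjusted p = 0.128), and it was 3.66 ± 1.13 without WT_A24 (adjusted p = 0.119). That of Trdn was 1.38 ± 0.46 (adjusted p = 0.143), and 1.42 ± 0.52 without WT_A24 (adjusted p = 0.146). Slc8a1 followed at 0.33 ± 0.13 (adjusted p = 0.188), or 0.42 ± 0.13 without WT_A24 (adjusted p = 0.114). The other 7 members lay between -0.14 (Jph2) and 0.28 (Cacna1c), and without WT_A24 between -0.28 (Jph2) and 0.12 (Ryr2).

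In WT_B minus WT_F, Pln and Trdn again had the largest differences. The difference was 1.86 ± 0.84 for Pln (limma adjusted p = 0.188) and 0.95 ± 0.34 for Trdn (adjusted p = 0.118). Both comparisons share the WT_B libraries, so they are not independent. The other 8 members lay between -0.11 (Jph2) and 0.19 (Slc8a1). In WT_F minus WT_A, Pln differed by 1.495 ± 1.39 (adjusted p = 1.00), with WT_A24 left out by 1.79 ± 1.57, and Trdn by 0.43 ± 0.56. The other 8 lay between -0.084 (Srl) and 0.32 (Cacna1c). These values of Srl and Casq2 (the latter at -0.057) changed sign without WT_A24, to 0.054 and 0.017.

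Members were called when WT_A22 or WT_F_A28 was left out, or when libraries were weighted by their fit. With array weights and all libraries, WT_B minus WT_A called 3 members higher (Pln, Trdn and Slc8a1) and 1 lower (Jph2), against 18.8% of all genes higher and 19% lower, and WT_B minus WT_F called 2 higher (Pln and Trdn), against 15.4% higher and 17.4% lower. WT_F minus WT_A called 0 members with array weights, against 0.0401% higher and 0.032% lower. In that fit 1 of 10 members had an unadjusted p under 0.05 in limma, beside 10.9% of all genes. Without WT_A22 alone, WT_B minus WT_A called 2 members higher, Pln by 4.55 ± 0.63 (limma adjusted p = 0.00257) and Trdn by 1.91 ± 0.27 (adjusted p = 0.00275), against 11.6% of 12603 genes higher and 7.37% lower. WT_A22 and WT_F_A28 held the highest Pln and Trdn of their groups, so that leaving them out moves the differences upward by construction. With WT_A22, WT_A24 and WT_F_A28 left out, a choice made with their values known, WT_B minus WT_A compared 5 libraries with a high mitochondrial share against 2 with a low one. There 3 members were higher, Pln by 5.59 ± 0.13 (limma adjusted p = 3.4e-07), Trdn by 2.24 ± 0.22 (adjusted p = 0.000268) and Slc8a1 by 0.55 ± 0.11 (adjusted p = 0.00653), and 1 was lower, Jph2 at -0.42 ± 0.101 (adjusted p = 0.0141). In the same fit 17.1% of all genes were called higher and 16.7% lower. Without WT_F_A28, WT_B minus WT_F called 2 members higher, Pln by 2.41 ± 0.77 (adjusted p = 0.0475) and Trdn by 1.28 ± 0.22 (adjusted p = 0.00345), against 11.4% of all genes higher and 9.31% lower. WT_F minus WT_A called 0 members without the 3 libraries, against 0.00841% of genes higher and 0% lower. There 3 of 10 members had an unadjusted p under 0.05 in limma, beside 14.2% of all genes.

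Pln and Trdn were low in libraries with a low mitochondrial share and high in those with a high one, within WT_A and WT_F as well as between groups. In the 3 libraries with the lowest share, WT_A23, WT_A26 and WT_F_A32 at 1.93, 2.17 and 2.42%, Pln was at 8.98, 9.91 and 9.95 FPKM and Trdn at 4.53, 6.65 and 7.60. WT_A24, WT_F_A29 and WT_F_A31, at 6.63, 7.56 and 7.63%, had 89.4, 168 and 136 FPKM of Pln. WT_F_A30, at 17.2%, had 309, and WT_B9, at 33.8%, had 415. The 6 libraries at 45.2% or more had 492 to 633 FPKM of Pln and 28.998 to 38.2 of Trdn. The libraries form separate clusters in this share, so no correlation over all of them is given.

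**Figure D2:**
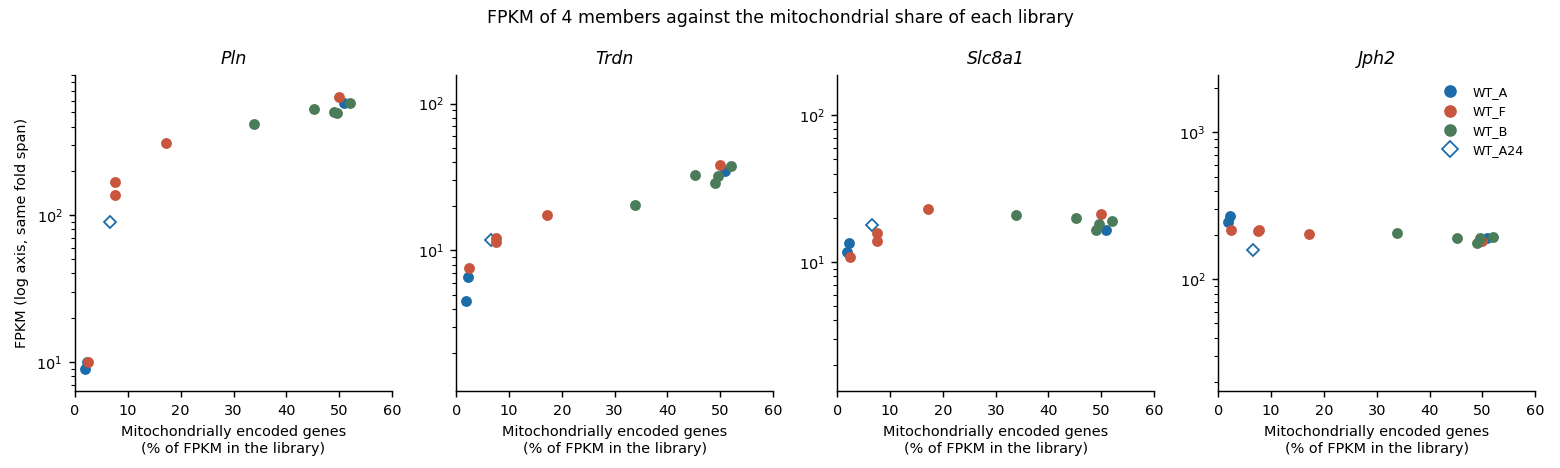
FPKM of Pln, Trdn, Slc8a1 and Jph2 (log axes of the same fold span) against the percent of FPKM in mitochondrially encoded genes in the same library. Each point is a library; Pln ran from 8.98 to 633 FPKM and Trdn from 4.53 to 38.2 along the share, Slc8a1 from 10.8 to 22.9, and Jph2 was highest, at 271, in a library with a low share.

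In the 2 comparisons with WT_B, differences went with base composition across genes. In WT_B minus WT_A the median difference was 0.53 over the 250 nuclear genes with the lowest 2% of G and C content and -0.15 over the 250 with the highest, and in WT_B minus WT_F these were 0.501 and -0.12 over 253 genes each. Trdn lay above the 90th percentile of the lowest bin in WT_B minus WT_A (1.25) and below it in WT_B minus WT_F (1.05), and Pln lay far above it in both. In WT_F minus WT_A the medians of the lowest and highest bins were closer, 0.056 and -0.020 over 245 genes each. There Pln (1.495 ± 1.39) and Trdn (0.43 ± 0.56) also lay above the 90th percentile of the lowest bin (0.335). Of the 105 genes with the lowest 2% of G and C content and a mean of at least 5 FPKM, whose median range was 3.43-fold in FPKM + 1, 7 spanned as wide a range as Pln over the 13 libraries without WT_A24 and 21 as wide a range as Trdn. With the trend on gene length and GC content taken out of each library, the WT_B minus WT_A difference was 2.87 ± 0.88 for Pln, 0.91 ± 0.305 for Trdn and 0.043 ± 0.11 for Slc8a1 (limma adjusted p = 0.146, 0.172 and 0.866). With each library's mitochondrial percent (log2) in the model the differences were -0.24 ± 0.34 for Pln and -0.196 ± 0.195 for Trdn (adjusted p = 0.994 for both), a change of sign. WT_A22 and WT_F_A28 were the only WT_A and WT_F libraries with a share inside the WT_B range, and in both Pln was at or near the WT_B level. The part of library composition in these differences was not tested beyond these fits.

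**Figure D3:**
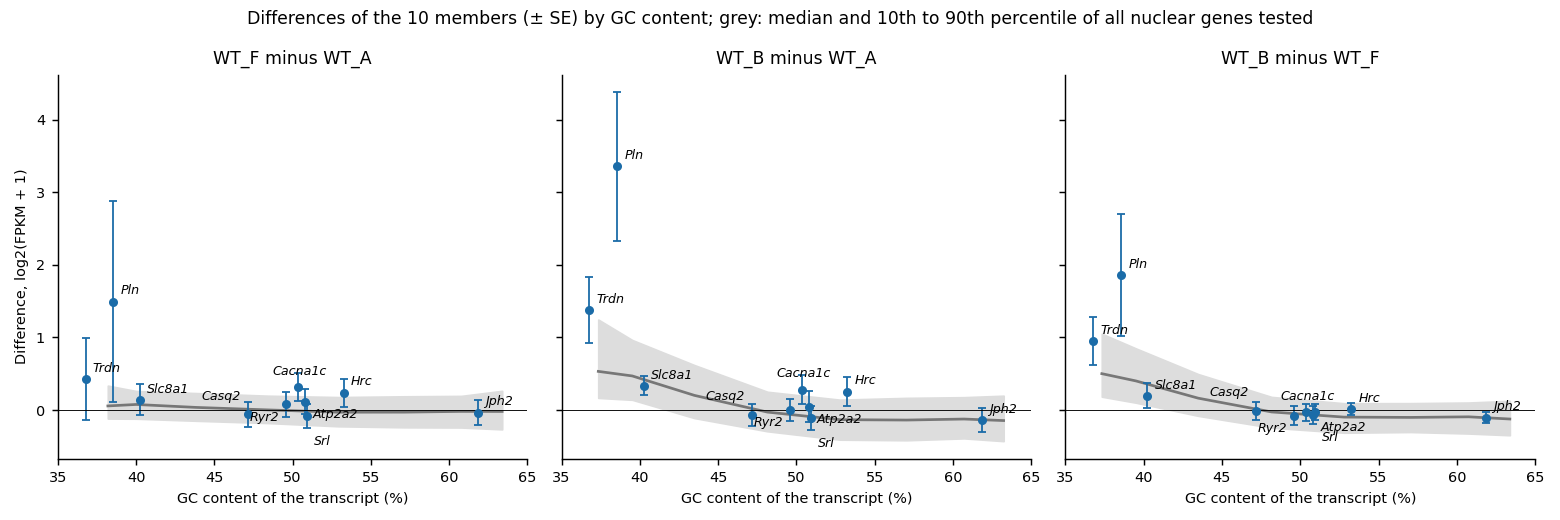
Difference on the log2(FPKM + 1) scale of each member (± SE, from limma) against the GC content of its transcript, for the 3 comparisons. The grey line and band give the median and the 10th to 90th percentile of all nuclear genes tested in bins of GC content. Pln, at 38.6% GC, stood above the band in WT_F minus WT_A (1.495), WT_B minus WT_A (3.36) and WT_B minus WT_F (1.86).

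Ratios of 2 members within a library do not depend on how that library was scaled. An effect of base composition does not cancel where the 2 genes differ in GC content, as Pln (38.6%) and Atp2a2 (50.8%) do. On the log2 scale, genes low in G and C stood against genes high in G and C at -0.504 in WT_A26 and up to 0.319 in WT_F_A28. The part of this in the ratios was not tested. The ratio of inhibitor to pump, Pln to Atp2a2, was 0.237, 0.00379, 0.0371 and 0.00431 in WT_A mice 22, 23, 24 and 26. It was 0.227, 0.0658, 0.108, 0.0577 and 0.00417 in WT_F mice 28 to 32 and 0.2603, 0.199, 0.185, 0.2198 and 0.165 in WT_B mice 4, 5, 7, 8 and 9. In 7 of the 9 WT_A and WT_F libraries the ratio was below every WT_B library, with WT_A22 and WT_F_A28 inside the WT_B range. The mean log2 ratio was -2.298 ± 0.25 in WT_B (SD, n = 5), -5.68 ± 2.84 in WT_A (n = 4) and -4.26 ± 2.18 in WT_F (n = 5). By exact two-sided permutation over libraries the WT_B minus WT_A difference of 3.39 had p = 0.0397 and adjusted p = 0.238 over the 24 comparisons of 8 ratios, where 0.00794 is the smallest p the design allows. The WT_B minus WT_F difference of 1.96 had permutation p = 0.0397 and the same adjusted p.

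None of the 24 passed the adjustment, and 4 had a permutation p under 0.05. The other 2 of these were Slc8a1 to Atp2a2 in WT_B minus WT_A (difference 0.31, exact permutation p = 0.0397, adjusted 0.238) and Trdn to Ryr2 in WT_B minus WT_F (difference 1.09, exact permutation p = 0.0397, adjusted 0.238). Trdn to Ryr2 was 0.117 in WT_A23, 1.07 in WT_A22 and 0.957 in WT_F_A28, and in WT_B it ran from 0.493 in WT_B9 to 1.21 in WT_B8. The ratios of Srl to Atp2a2, Casq2 to Ryr2 and Jph2 to Ryr2 differed by at most 0.2002 in size between groups, with permutation p between 0.23 and 0.865. Without WT_A24, Jph2 to Ryr2 differed by -0.41 in WT_B minus WT_A (exact permutation p = 0.0536, adjusted 0.321) and by -0.38 in WT_F minus WT_A (permutation p = 0.196, adjusted 0.589). In WT_A24 Cacna1c to Ryr2 was 0.134 and Hrc to Casq2 0.522, the lowest of the 14 libraries in both. None of the 24 passed the adjustment without WT_A24 either. There Pln to Atp2a2 differed by 3.696 in WT_B minus WT_A (exact permutation p = 0.0893, adjusted 0.408), Slc8a1 to Atp2a2 by 0.396 (permutation p = 0.0179, the smallest that 3 against 5 libraries allow, adjusted 0.317) and Trdn to Ryr2 by 1.42 (permutation p = 0.107, adjusted 0.408).

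**Figure D4:**
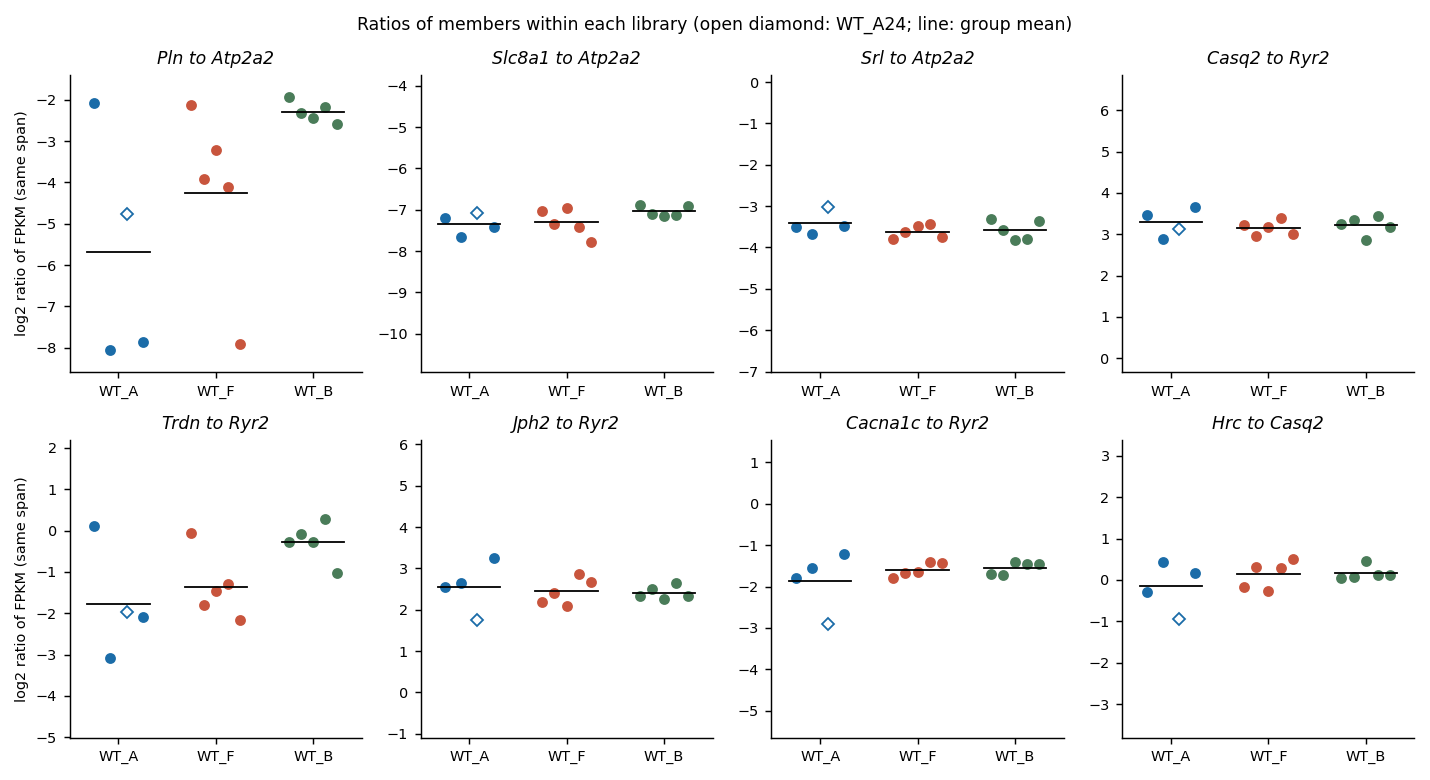
Log2 ratio of 2 members within each library for the 8 ratios, on axes of the same span, by group; lines are group means and the open diamond is WT_A24. Pln to Atp2a2 ran over the widest range, from 0.00379 in WT_A23 to 0.2603 in WT_B4 as a plain ratio.

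Other calcium-handling genes were read from a list of 58 in 6 groups, of which 57 had a row under their symbol, and Strit1 was not analysed here. Between 47 and 48 of them were tested in each comparison, and 0 were called in any, against the same shares of all genes as above. The counts with an unadjusted p under 0.05 in limma were 0 of 47 in WT_F minus WT_A, 9 of 48 in WT_B minus WT_A and 9 of 47 in WT_B minus WT_F, beside 3.85%, 22.5% and 25.8% of all genes. In WT_B minus WT_F, voom called 1 of 47 higher (Calm2) and 1 lower (S100a1), beside 4.05% of all genes in both directions together. Rescaling by median of ratios called 1 lower (S100a1), beside 1.98% of all genes. With array weights, 8 of 48 were higher and 11 lower in WT_B minus WT_A, beside 18.8% and 19% of all genes, and 7 of 47 were higher and 7 lower in WT_B minus WT_F, beside 15.4% and 17.4%. Without WT_A22, WT_A24 and WT_F_A28, 6 of 46 were higher and 9 lower in WT_B minus WT_A, beside the 17.1% and 16.7% of all genes, and 7 of 47 were higher and 4 lower in WT_B minus WT_F, beside 11.4% and 9.31%. The median difference of the list was -0.030, -0.065 and -0.041 in the 3 comparisons, beside -0.0019, -0.035 and -0.029 over all genes. Without WT_A24 it was 0.0296 in WT_F minus WT_A, a change of sign, and -0.017 in WT_B minus WT_A, with 0 called.

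Among genes that act on the pump, S100a1, a calcium sensor that binds SERCA2 and the release channel, was the most abundant. Its level was 663, 921, 540.5 and 969 FPKM in WT_A mice 22, 23, 24 and 26, 579, 684, 677, 801 and 788 in WT_F and 455, 431, 476, 478 and 603 in WT_B. The difference in WT_B minus WT_F was -0.53 ± 0.12 (limma adjusted p = 0.0512). Of the WT_B values, 4 of 5 lay below every WT_A and WT_F value, and WT_B9 lay among them. Ppp1r3a, the subunit that targets a phosphatase to glycogen and to the SR, ran over 1.798 to 29.2 FPKM, with its highest values in WT_F_A28 (29.2) and WT_A22 (23.5), and its GC content was 36.7%.

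Among genes that act on the release channel, Prkaca, the catalytic subunit of protein kinase A, was at 98.4 to 189 FPKM, and Calm3, a calmodulin gene, was at 65.7 to 109. Calm2, which encodes the same protein as Calm3, was chosen after its values were seen. It was at 51.98, 14.2, 26.4 and 11.8 FPKM in WT_A, 36.9, 21.99, 23.4, 20.9 and 11.8 in WT_F and 49.4, 42.2, 46.6, 47.7 and 37.2 in WT_B. All 5 WT_B libraries lay above the WT_F libraries, by 1.001 ± 0.22 (limma adjusted p = 0.0511, and 0.0388 with the length and GC trend taken out), and WT_A22 was the highest of all 14. Reads of both could be shared with pseudogenes.

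In the SR membrane and lumen, Tmem38a, a potassium channel of the SR, was at 196 to 332 FPKM, the chaperone Calr at 72.8 to 117 and Calu, a calcium-binding protein of the secretory pathway, at 48.3 to 109.9. Tmem38a differed by -0.399 ± 0.14 in WT_B minus WT_A (limma adjusted p = 0.151). Around the L-type channel the highest were Rrad, a small GTP-binding protein that restrains the channel (48.6 to 189 FPKM), the caveolin gene Cav3 (30.97 to 59.6) and Cacna2d1, the alpha-2-delta subunit (3.83 to 15.1). Cacna2d1 differed by 0.97 ± 0.25 in WT_B minus WT_A (adjusted p = 0.102) and 0.76 ± 0.24 in WT_B minus WT_F (adjusted p = 0.0919), and it too was high in WT_A22 (10.7) and WT_F_A28 (12.5). Of the mitochondrial calcium genes, Smdt1 was at 47.97 to 85.1 FPKM, Micu2 at 23.7 to 30.9 and Letm1 at 11.8 to 18.6. Of other calcium pumps and channels, Orai1 (5.82 to 11.9 FPKM), Atp2a3 (2.39 to 4.33) and Atp2b1 (2.18 to 4.13) were the highest.

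WT_A24 differed from the other 13 libraries in which transcripts of calcium-handling genes it held. Sln, which encodes sarcolipin, the pump inhibitor of atrial muscle, was at 1444 FPKM there and at 0 to 0.271 in the others. Pln, the ventricular counterpart, was at 89.4 FPKM, between the libraries on either side of it in mitochondrial share. The T-type channel Cacna1h was at 28.6 FPKM in WT_A24 and 0.644 to 1.599 elsewhere, the pump gene Atp2a1 at 7.37 against 0.126 to 0.403, and the plasma membrane pump Atp2b4 at 5.02 against 1.28 to 1.99. These 3 were chosen after their values were seen. The summed level of 4 skeletal muscle markers was 5.14 FPKM in WT_A24 and at most 1.47 elsewhere, though 2 of them, Myh1 and Myh4, were at 0 FPKM in all of WT_A. Of the members, Srl was higher in WT_A24 than in any other library, and Hrc, Jph2 and Cacna1c were lower than in any other, while Atp2a2, Casq2, Ryr2, Slc8a1, Pln and Trdn lay inside the range of the rest. As 1 library, WT_A24 gives no test of these differences.

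Within groups, the members did not move as one. Over the 13 libraries without WT_A24, after each group's mean was taken out, the Pearson r with the mean of the 10 members was 0.966 for Pln, 0.916 for Slc8a1 and 0.877 for Trdn, but -0.708 for Jph2 and -0.673 for Hrc. Pln and Trdn had r = 0.913 with each other, Jph2 and Hrc 0.939, and Trdn and Hrc -0.873. The genes most like the mean of the members were Gm49708 (r = 0.995), Smpdl3a (0.993), Kpna1 (0.986), Gbe1 (0.986) and Cbx5 (0.984) of 10699 genes searched. These r values are descriptions over libraries that differ in depth and mitochondrial share within groups, which all genes of a library have in common, and Pln, with the widest range, weighs most in the mean.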

How the data were processed

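RNA-Seq of heart was analysed in 14 WT libraries, 1 per mouse. The authors deposited FPKM per gene for 56748 Ensembl IDs, of which 52073 were matched to a symbol, and the processing notes name GRCm39 and DESeq2. The aligner was not given in the sources used here. Coordinates, GC content and sequences came from the GENCODE M21 annotation on GRCm38. From the steps of the FPKM values, 90.2 to 92.0% of low values were whole fragments within 0.02, which gave the depth of each library.

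Groups were compared by limma 3.58.1 (R 4.3.3) with an intensity trend on log2(FPKM + 1), over genes that reached 0.5 FPKM in 4 or more libraries of a comparison, two-sided, with Benjamini-Hochberg adjustment over all genes. P-values measure the spread between the mice sampled. The order of levels and the ratios were tested by exact permutation in Python 3.11.15. All 10 members were named. Of the other calcium genes, those called and the 3 highest of each subgroup were to be named, with atrial and ventricular markers and the 5 genes most like the mean of the members, and 1 gene so named is not reported here. The members and the lists were chosen with earlier results of these data known. Alternatives were other pseudocounts (0.1 and 5), filters, scalings, weights and covariates, voom on recovered fragments, and libraries left out. The code was tested on simulated data.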

Additional observations from a re-analysis of the deposited data

Results flagged for a closer look

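In 132 groups of values, 16 (12.1%) held 1 sample far from the others of its group, where chance gives about 1 in 20, and 5 of the 16 were in WT_A24. Among the members, Pln was at 579 FPKM in WT_A22 and at 8.98 to 89.4 in the other WT_A libraries. The ratio of Pln to Atp2a2 was 0.237 in WT_A22 against 0.00379 to 0.0371 in the rest of WT_A. The ratio of Trdn to Ryr2 was 1.07 in WT_A22 against 0.117 to 0.254 in the rest of WT_A, and 0.957 in WT_F_A28 against 0.222 to 0.407 in the rest of WT_F. The ratio of Hrc to Casq2 was 1.38 in WT_B7 against 1.04 to 1.09 in the rest of WT_B.

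Among the other calcium genes, Sln was at 1444 FPKM in WT_A24 against 0 to 0.0475 in the rest of WT_A, and at 0.271 in WT_B5 against 0 to 0.0418 in the rest of WT_B. Ppp1r3a was at 23.5 FPKM in WT_A22 against 1.80 to 5.46, and at 29.2 in WT_F_A28 against 3.45 to 8.96 in its group. S100a1 was at 603 FPKM in WT_B9 against 431 to 478, Calu at 109.9 in WT_A24 against 49.8 to 57.7, and Orai1 at 10.5 in WT_B9 against 6.61 to 7.15.

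Of the chamber markers, Myl7 was at 4235 FPKM in WT_A24 against 0 to 2.003 in the rest of WT_A, Myl4 at 1076 against 0.346 to 0.432 and Nppa at 6156 against 26.1 to 232. Hey2 was at 1.05 FPKM in WT_B5 against 0.923 to 0.931 in the rest of WT_B.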

How the results depend on the processing

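Of 410 member differences under other settings, 344 kept their direction and their side of the threshold, 12 passed it and 54 changed sign, and of 280 with 1 library left out these were 248, 4 and 28. No difference with a changed sign had a limma adjusted p under 0.419. Of 64 ratio differences under other settings 8 changed sign, and of 224 with 1 library left out 19 did. Causes were not tested. Rescaling nuclear genes moved the median difference of all genes in WT_B minus WT_A from -0.035 to 0.082. The limma calls over all genes in WT_F minus WT_A, 3 as reported, were 6 with a pseudocount of 0.1, 1 with no filter, 9 with array weights, 9 with all 14 libraries in 1 fit, 6 with the length and GC trend removed, 1 with voom, 0 with WT_A24 left out and 1 with WT_A22, WT_A24 and WT_F_A28 left out. The limma calls over all genes in WT_B minus WT_A, 41 as reported, were 0 with no filter, 26 with a filter of 2 FPKM, 108 with nuclear genes rescaled, 4811 with array weights, 401 with all 14 libraries in 1 fit, 2 with the mitochondrial percent as covariate, 79 with the length and GC trend removed, 12 with voom, 0 with WT_A24 left out and 4206 with WT_A22, WT_A24 and WT_F_A28 left out. The limma calls over all genes in WT_B minus WT_F, 208 as reported, were 20 with no filter, 4233 with array weights, 35 with all 14 libraries in 1 fit, 11 with the mitochondrial percent as covariate, 512 with voom and 2645 with WT_A22, WT_A24 and WT_F_A28 left out. Members called were 0 as reported. They were 4 in WT_B minus WT_A and 2 in WT_B minus WT_F both with array weights, which called 37.7 and 32.8% of all genes, and with WT_A22, WT_A24 and WT_F_A28 left out, which called 33.8 and 20.7%. With nuclear genes rescaled, WT_F minus WT_A turned to 0.00099 for Casq2 and 0.023 for Jph2, and WT_B minus WT_A turned to 0.097 for Casq2, 0.024 for Jph2 and 0.057 for Srl, and WT_B minus WT_F turned to 0.039 for Atp2a2, 0.027 for Ryr2, 0.096 for Casq2, 0.00104 for Jph2, 0.066 for Cacna1c and 0.083 for Srl. With array weights, WT_F minus WT_A turned to 0.0083 for Casq2 and 0.063 for Srl, and WT_B minus WT_A turned to -0.019 for Ryr2, 0.076 for Casq2, -0.076 for Cacna1c, 0.027 for Srl and -0.015 for Hrc, and WT_B minus WT_F turned to 0.067 for Casq2 and -0.055 for Hrc. With WT_A24 left out, WT_F minus WT_A turned to 0.017 for Casq2, 0.054 for Srl and -0.077 for Cacna1c to Ryr2, and WT_B minus WT_A turned to 0.0068 for Casq2, 0.031 for Srl and -0.035 for Cacna1c to Ryr2. With WT_A22, WT_A24 and WT_F_A28 left out, WT_F minus WT_A turned to 0.042 for Casq2, 0.11 for Srl, -0.036 for Hrc, -0.16 for Cacna1c to Ryr2 and -0.078 for Hrc to Casq2, and WT_B minus WT_A turned to 0.065 for Casq2, -0.046 for Cacna1c, 0.075 for Srl, -0.065 for Hrc, -0.17 for Cacna1c to Ryr2 and -0.13 for Hrc to Casq2, and WT_B minus WT_F turned to 0.023 for Casq2, -0.0295 for Hrc, -0.0053 for Cacna1c to Ryr2 and -0.053 for Hrc to Casq2. With quantile scaling, WT_F minus WT_A turned to 0.00601 for Jph2, and WT_B minus WT_A turned to -0.51 for Atp2a2, and WT_B minus WT_F turned to 0.013 for Ryr2, 0.0036 for Cacna1c and 0.056 for Srl. With the mitochondrial percent as covariate, WT_F minus WT_A turned to 0.026 for Jph2, and WT_B minus WT_A turned to -0.24 for Pln, -0.196 for Trdn and 0.14 for Jph2, and WT_B minus WT_F turned to -0.82 for Pln, -0.27 for Slc8a1, -0.15 for Trdn, 0.0302 for Jph2 and 0.0027 for Cacna1c. With a pseudocount of 5, WT_B minus WT_A turned to -0.0013 for Ryr2. With the length and GC trend removed, WT_B minus WT_A turned to -0.071 for Ryr2, and WT_B minus WT_F turned to 0.0066 for Casq2, -0.057 for Slc8a1 and 0.043 for Srl. With median-of-ratios scaling, WT_B minus WT_F turned to 0.014 for Casq2 and 0.0011 for Srl.

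With each library left out in turn, the calls over all genes ran from 0 to 4 in WT_F minus WT_A, from 0 to 2392 in WT_B minus WT_A and from 17 to 2645 in WT_B minus WT_F, the highest counts of the last 2 being those without WT_A22 and without WT_F_A28. Members called ran from 0 to 2 in WT_B minus WT_A and in WT_B minus WT_F, with 2 only without those same libraries. In WT_F minus WT_A, the differences that changed sign when 1 library was left out ran from -0.034 to 0.198 for Ryr2, from -0.15 to 0.018 for Casq2, from -0.17 to 0.084 for Jph2, from -0.17 to 0.054 for Srl, from -0.076 to 0.15 for Slc8a1 to Atp2a2, from -0.037 to 1.03 for Trdn to Ryr2, from -0.077 to 0.49 for Cacna1c to Ryr2 and from -0.38 to 0.12 for Jph2 to Ryr2. In WT_B minus WT_A, the differences that changed sign when 1 library was left out ran from -0.0027 to 0.13 for Atp2a2, from -0.11 to 0.12 for Ryr2, from -0.16 to 0.0068 for Casq2, from -0.19 to 0.031 for Srl, from -0.035 to 0.53 for Cacna1c to Ryr2, from -0.199 to 0.053 for Casq2 to Ryr2 and from -0.41 to 0.091 for Jph2 to Ryr2. In WT_B minus WT_F, the differences that changed sign when 1 library was left out ran from -0.12 to 0.019 for Atp2a2, from -0.16 to 0.0066 for Ryr2, from -0.085 to 0.084 for Casq2, from -0.097 to 0.033 for Cacna1c, from -0.086 to 0.0504 for Srl, from -0.0295 to 0.045 for Hrc, from -0.0053 to 0.087 for Cacna1c to Ryr2, from -0.073 to 0.12 for Hrc to Casq2, from -0.12 to 0.077 for Jph2 to Ryr2 and from -0.023 to 0.11 for Srl to Atp2a2. No paired analysis was possible because the mouse numbers are not shared between groups. FPKM keep the depth only through their steps.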
